A study of Mus musculus with 12 samples.

Results

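Endothelial genes were followed in cultured embryonic mouse salivary glands as 10 genes that mark the cells lining blood vessels: Pecam1, Cdh5, Kdr, Flt1, Tek, Tie1, Emcn, Cldn5, Sox17 and Dll4. They were found by symbol among the 52636 Ensembl gene identifiers of the count table, and all 10 were present. Glands taken at E13.5 (embryonic day) were kept for 2 days on permeable membranes at the surface of the medium, and total RNA of 12 libraries was sequenced after ribosomal RNA depletion. Of these, 3 libraries came from wild-type glands given the solvent DMSO (DMSO). Another 3 came from wild-type glands given 2.5 µM SU5402, an inhibitor of the FGF receptor kinases (FGFRi). Effects of SU5402 on kinases other than the FGF receptors, including the receptors encoded by Kdr, Flt1 and Tek, were not tested. Differences under FGFRi are therefore those of the compound. Untreated glands of a K14Cre-Fgfr2b cross gave 2 libraries each of WT, HET and HOM littermates. In that cross Cre is driven by the keratin 14 promoter, which is active in epithelium, so the deletion of Fgfr2b is not aimed at endothelial cells. Whether the WT and HET glands carried Cre is not stated, and neither is how many embryos or litters stand behind a library, so p-values measure the spread between these libraries, which may be technical. The labels of the 12 libraries do not divide them into batches, and batch effects were not tested.

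Endothelial cells form the inner wall of vessels and hold to each other through adherens and tight junctions. Their growth is driven by VEGF ligands, which act on the receptors encoded by Kdr and Flt1, while angiopoietins act on the receptor encoded by Tek and mural cells wrap and steady the vessel wall. In the developing salivary gland, vessels run through the mesenchyme around the epithelial buds. An explant keeps the endothelial cells it was dissected with but is cut off from the circulation.

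Total counts ran from 6043701 to 22322182 per library, and the 10 genes together took only 31 to 563 of them, so single values rest on few reads. Levels are given as normalized read counts (CPM) after TMM normalization, which divides each count by an adjusted library size so that most genes keep their level. Differences are log2 fold changes ± SE from edgeR's quasi-likelihood test, called at a Benjamini-Hochberg adjusted p under 0.05 over 15859 genes. Sox17 failed the filter on low counts and was described but not tested, which leaves 9 tested genes. Xist and Y-linked genes marked WT 1, WT 2, HET 1, HET 2 and DMSO 2 as male and the other 7 libraries as female. Mesenchymal and epithelial markers were abundant in every library. The summed CPM of 10 mesenchymal genes was 1823 to 1958 in DMSO, 3133 to 4510 in FGFRi, 2024 to 2092 in WT, 2921 to 3247 in HET and 3232 to 3362 in HOM. The summed CPM of 12 epithelial genes was 2753 to 3165 in DMSO, 2003 to 2238 in FGFRi, 2776 to 2917 in WT, 2375 to 2597 in HET and 1879 to 1961 in HOM. In whole-gland RNA, fewer endothelial cells and less RNA per endothelial cell cannot be told apart.

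The 10 endothelial genes together were low in the vehicle, inhibitor and wild-type glands and higher in the HET and HOM glands. Their summed level was 4.93, 7.60 and 8.21 CPM in DMSO 1 to 3 and 8.26, 9.39 and 7.19 CPM in FGFRi 1 to 3. In WT it came to 9.37 and 10.16 CPM, in HET to 15.6 and 32.3 CPM and in HOM to 20.8 and 23.3 CPM. Group means were 6.91 ± 1.74 CPM in DMSO (SD, n = 3), 8.28 ± 1.10 in FGFRi (SD, n = 3), 9.77 ± 0.555 in WT (SD, n = 2), 24.0 ± 11.8 in HET (SD, n = 2) and 22.04 ± 1.77 in HOM (SD, n = 2). Every HET and HOM library lay above every other library, and the HET libraries lay far apart from each other. The DMSO and FGFRi ranges overlapped.

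**Figure D1:**
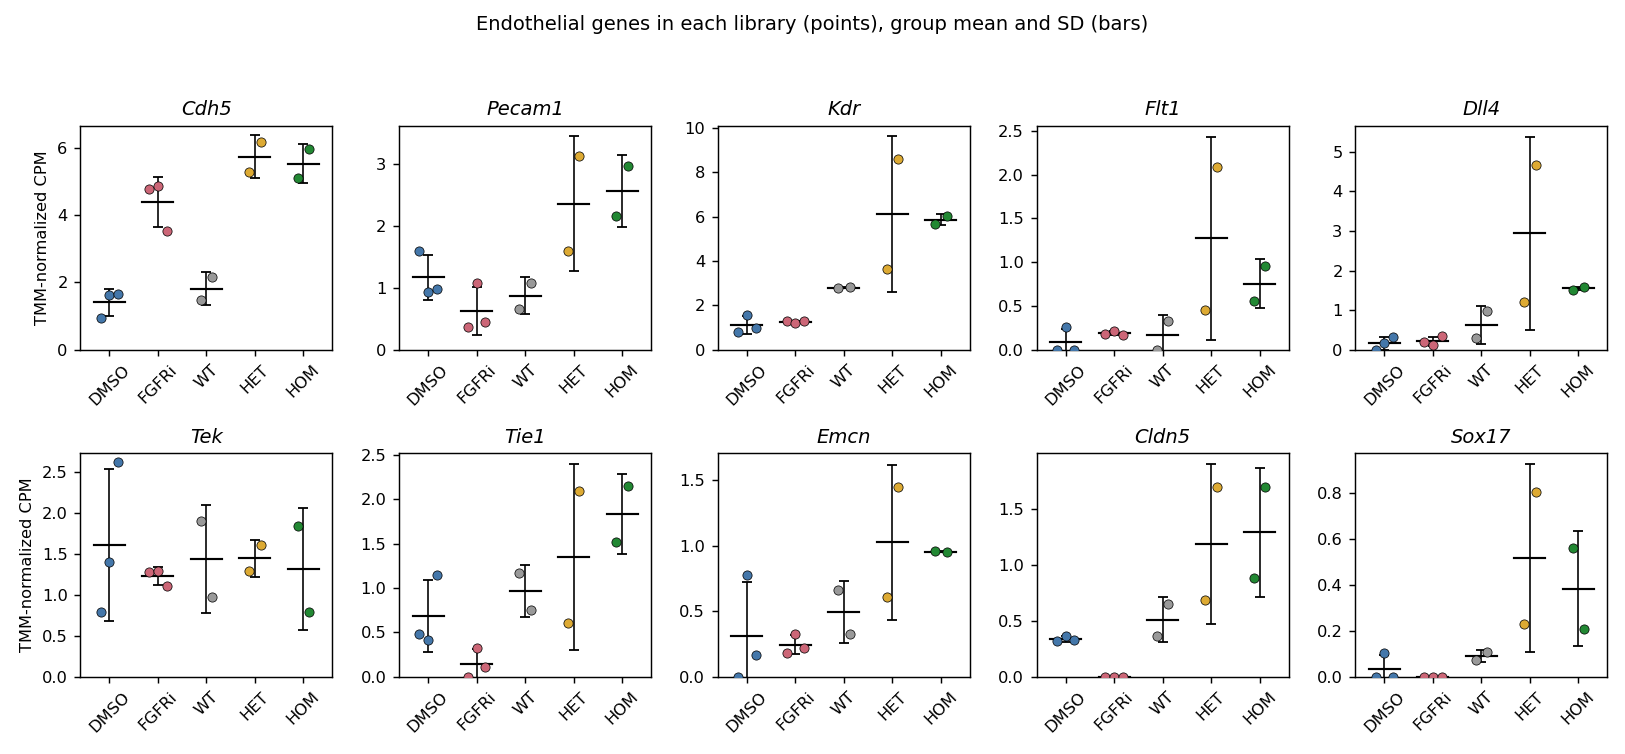
Level of each of the 10 endothelial genes in TMM-normalized CPM (vertical axis, own scale per gene) in the 5 groups (horizontal axis). Points are libraries, long bars are group means and error bars are the SD, cut off at 0. Cdh5 was 3.54 to 4.86 CPM in FGFRi against 0.955 to 1.64 in DMSO, and Cldn5 had no count in FGFRi. HET 2 was the highest library for Cdh5, Pecam1, Kdr, Flt1, Dll4, Emcn and Sox17.

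Under the FGF receptor inhibitor the endothelial genes did not move as a group. Cdh5 rose about 3-fold, Cldn5 fell to no reads at all, and the other 7 tested genes did not pass the threshold. Both called genes encode junction proteins of the endothelium, but they went in opposite directions. Pecam1, which also marks endothelial junctions, was not called. Among all tested genes, 9.73% were called higher and 10.7% lower in this comparison, so 1 call in each direction among 9 is near that background. The median log2 fold change of the 9 genes was -0.37, also with Cldn5 at its bound, beside -0.015 over all genes tested.

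Cdh5 (ENSMUSG00000031871) encodes VE-cadherin, the classical cadherin of endothelial adherens junctions. It was read at 0.955, 1.61 and 1.64 CPM in DMSO and at 4.77, 4.86 and 3.54 CPM in FGFRi. Every inhibitor library was thus above every vehicle library. The log2 fold change was 1.56 ± 0.28 (adjusted p = 0.00119), a 2.94-fold rise, from 47 counts in DMSO and 135 in FGFRi. With any library left out it stayed between 1.40 and 1.72, with adjusted p of at most 0.00569. When libraries were scaled to their mesenchymal genes, which rose in the same comparison, the Cdh5 difference was 0.61 and its adjusted p 0.0816. That scaling moved the median of all genes to -0.96.

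Cldn5 (ENSMUSG00000041378) encodes the main tight junction claudin of endothelium. It had 2, 7 and 2 counts in DMSO 1 to 3, or 0.318, 0.364 and 0.328 CPM, and 0 counts in all 3 FGFRi libraries. The call had an adjusted p of 0.0177. Against a floor of 3 counts over the FGFRi group, which covers counting error only, its level was at least 3.68-fold lower than in DMSO. The call was lost without DMSO 2 (adjusted p = 0.0610), without FGFRi 3 (adjusted p = 0.0672) and with library sex in the model (adjusted p = 0.0613). In the other 3 groups it was 0.366 and 0.648 CPM in WT, 0.681 and 1.69 CPM in HET, and 0.880 and 1.70 CPM in HOM.

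Pecam1 (ENSMUSG00000020717) encodes a cell adhesion molecule at endothelial contacts and is the usual stain for vessels. It was read at 1.59, 0.936 and 0.985 CPM in DMSO and at 0.367, 1.08 and 0.443 CPM in FGFRi. FGFRi 2 lay within the DMSO range and the other inhibitor libraries lay below it. The log2 difference was -0.83 ± 0.51 with an adjusted p of 0.279, and its 95% interval ran from -1.92 to 0.26. Pecam1 and Cdh5, which both mark endothelial junctions, thus had differences of opposite sign here.

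Tie1 (ENSMUSG00000033191) encodes a receptor kinase related to the angiopoietin receptor, without a clear ligand of its own. It was read at 0.478, 0.416 and 1.15 CPM in DMSO and at 0, 0.324 and 0.111 CPM in FGFRi, from 18 and 5 counts. All 3 inhibitor libraries were below all 3 vehicle libraries, but the log2 difference of -1.92 ± 0.83 did not pass (adjusted p = 0.120). Tek (ENSMUSG00000006386), the angiopoietin receptor itself, was 0.796 to 2.63 CPM in DMSO and 1.11 to 1.30 CPM in FGFRi, which overlapped. Its log2 difference was -0.37 ± 0.47 (adjusted p = 0.639). Emcn, which encodes the sialomucin endomucin of veins and capillaries, was read at 0 to 0.780 CPM in DMSO and 0.183 to 0.324 CPM in FGFRi (log2 difference -0.83 ± 0.80, adjusted p = 0.517), and its sign turned without DMSO 2.

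Kdr (ENSMUSG00000062960) encodes the main signalling receptor for VEGF-A. It was read at 0.796, 1.56 and 0.985 CPM in DMSO and at 1.28, 1.19 and 1.27 CPM in FGFRi, all within the DMSO range. The log2 difference was 0.022 ± 0.41 (adjusted p = 0.982), with a 95% interval from -0.86 to 0.90. Flt1, whose product binds VEGF-A and limits its action on Kdr, had 5 counts in DMSO and 6 in FGFRi. Dll4, which encodes the Notch ligand of sprouting tip cells and arteries, had 5 and 8 counts. Sox17, a transcription factor of arterial endothelium, had 2 counts in DMSO and none in FGFRi. For these 3 genes a difference was not detectable at this depth.

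**Figure D2:**
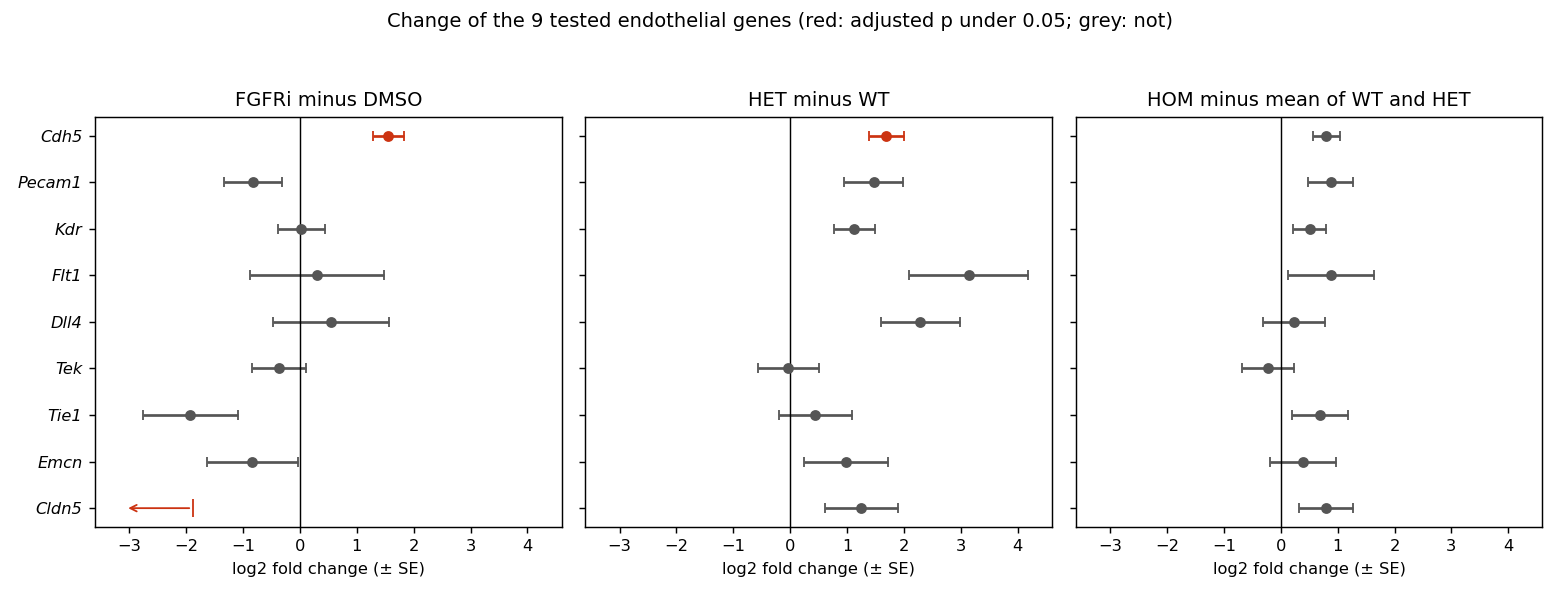
Log2 fold change (horizontal axis) of the 9 tested endothelial genes (vertical axis) in 3 comparisons, with SE as error bars and calls in red. The arrow for Cldn5 under FGFRi starts at the bound set by the floor of 3 counts (at least 3.68-fold lower) and has no upper size. Cdh5 was the gene called higher under FGFRi and in HET, and no gene was called in HOM against the joined controls.

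In the deletion cross, the study joins WT and HET as controls, so HET was compared with WT before they were joined. Cdh5 rose 3.22-fold in HET, and 7 of the 10 endothelial genes were higher in both HET libraries than in either WT library. Among all tested genes, 24.1% had such a separation upward and 0.851% were called higher. Of the 9 tested genes, 6 were separated in this way, 1 was called and 8 were not. Their median log2 difference was 1.25, beside 0.0082 over all genes tested. A gene that passed the count filter through its HET and HOM libraries had to be high there, so this count is a description.

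Cdh5 was read at 1.46 and 2.16 CPM in WT and at 5.30 and 6.19 CPM in HET. Both HET values were more than 2-fold above both WT values. Scaling to the mesenchymal genes was not run for this comparison. The Cdh5 log2 fold change was 1.69 ± 0.31 (adjusted p = 0.0147). It was not called without WT 1 (adjusted p = 0.220), without WT 2 (adjusted p = 0.0675) or without HET 2 (adjusted p = 0.0983), while the log2 difference stayed between 1.39 and 1.94.

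The VEGF receptors and the Notch ligand differed widely between the HET libraries themselves. Kdr was read at 2.78 and 2.81 CPM in WT, 3.63 and 8.60 CPM in HET and 5.68 and 6.04 CPM in HOM. Both HET values were above WT, but by unequal amounts, and the log2 difference of 1.12 ± 0.36 did not pass (adjusted p = 0.174). Flt1 was read at 0 and 0.324 CPM in WT, 0.454 and 2.09 CPM in HET and 0.560 and 0.952 CPM in HOM. Its log2 difference for HET was 3.13 ± 1.05 (adjusted p = 0.190) from 3 counts in WT and 32 in HET. Dll4 was read at 0.293 and 0.973 CPM in WT, 1.21 and 4.66 CPM in HET and 1.52 and 1.57 CPM in HOM. Its log2 difference for HET was 2.29 ± 0.70 (adjusted p = 0.153). HET 2 was thus the highest library for all 3 genes, and without it the differences were 0.38 for Kdr, 1.68 for Flt1 and 1.02 for Dll4. Without HET 1, which leaves HET 2 alone as a group assumed to vary like the others, Kdr (1.61, adjusted p = 0.0322) and Dll4 (2.95, adjusted p = 0.0379) were called.

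The remaining endothelial genes were also spread in HET. Pecam1 was 0.659 and 1.08 CPM in WT, 1.59 and 3.14 CPM in HET and 2.16 and 2.98 CPM in HOM, with a log2 difference of 1.47 ± 0.52 for HET (adjusted p = 0.226). Cldn5 differed by 1.25 ± 0.64 (adjusted p = 0.414), Emcn by 0.98 ± 0.74 (adjusted p = 0.600) and Tie1 by 0.44 ± 0.64 (adjusted p = 0.817), and the sign for Tie1 turned without HET 2. Sox17 had 2 counts over both WT libraries, 3 in HET 1, 10 in HET 2, and 7 and 5 in HOM 1 and 2. Tek stood apart: it was 1.90 and 0.973 CPM in WT, 1.29 and 1.61 CPM in HET and 1.84 and 0.786 CPM in HOM, and its log2 difference for HET was -0.032 ± 0.53 (adjusted p = 0.990). Of the marker lists, 10 of 10 mesenchymal and 10 of 10 skeletal muscle genes rose under FGFRi and 11 of 12 epithelial genes fell, while in HOM 6 mesenchymal and 7 muscle genes rose and 7 epithelial genes fell, and in HET 3 mesenchymal and 4 muscle genes rose. The mesenchymal sum was higher in HET than in WT (3084 ± 230 against 2058 ± 48.4 CPM, SD, n = 2 each), and so was the sum of 10 skeletal muscle genes (160 ± 70.9 against 18.5 ± 3.68 CPM). Their part in the endothelial values was not tested.

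HOM glands, in which both copies of Fgfr2b are deleted in keratin 14 expressing cells, were compared with the mean of WT and HET. No endothelial gene passed edgeR's test here, and 2 of 9 had an unadjusted p under 0.05. DESeq2 called 0 and limma-voom 1, which was Cdh5 (0.84, adjusted p = 0.0211). Among all tested genes, 5.88% were called in either direction. None of the 10 genes was higher in both HOM libraries than in every control library, against 13.4% of all tested genes. The median log2 difference of the 9 was 0.69, beside 0.00055 over all tested, and 8 of 9 were positive. Against WT alone this median was 1.37, and against HET alone it was -0.055. A gene that passed the count filter through its HET and HOM libraries had to be high there, so these medians and signs are a description.

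Cdh5 was read at 5.12 and 5.96 CPM in HOM, and its log2 difference from the joined controls was 0.80 ± 0.24 (adjusted p = 0.0594). That control mean joins groups that differed in this gene. Against WT alone the Cdh5 difference was 1.64 (adjusted p = 0.00413), and against HET alone it was -0.044 (adjusted p = 0.987). Pecam1 differed from the joined controls by 0.88 ± 0.40 (adjusted p = 0.241), Kdr by 0.51 ± 0.29 (adjusted p = 0.373) and Cldn5 by 0.80 ± 0.48 (adjusted p = 0.399). Against HET alone, Kdr (-0.055), Flt1 (-0.68), Emcn (-0.095) and Dll4 (-0.91) had the opposite sign. The HOM glands were of the other sex than their littermate controls, so genotype and sex cannot be told apart here except through the DMSO group.

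The vehicle group and the untreated WT group are both wild type, and in neither was the FGF signal manipulated. They also differ in solvent and in sex, as both WT libraries were male and DMSO 1 and DMSO 3 female. The WT glands came from the K14Cre-Fgfr2b cross. The distance between the groups holds all of these together. No endothelial gene passed edgeR's test between DMSO and WT, 1 of 9 had an unadjusted p under 0.05, DESeq2 called 0, and 2.26% of all tested genes were called in either direction. The gene at the low p was Kdr, at 0.796 to 1.56 CPM in DMSO and 2.78 to 2.81 CPM in WT (log2 difference -1.18 ± 0.39, adjusted p = 0.160). Every DMSO library was below both WT libraries for Kdr, a distance about as large as that between HET and WT. The same order held for Cldn5 (log2 difference -0.49 ± 0.71, adjusted p = 0.502). The share of all genes with such a separation was not computed here. Cdh5 differed by -0.29 ± 0.33 (adjusted p = 0.807).

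The effects of inhibitor and deletion share no library, and the difference between them was tested directly. Cldn5 was the 1 endothelial gene for which they differed (adjusted p = 0.0467), beside 1.41% of all genes called lower. No size is given because of the zero counts, and the call was lost in 11 of 12 fits that left out a library. Tie1 had a difference of -2.62 ± 0.97 (adjusted p = 0.176) and Pecam1 of -1.71 ± 0.65 (adjusted p = 0.186). For Cdh5 it was 0.76 ± 0.37 (adjusted p = 0.323).

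Per kilobase of exon and over all 12 libraries, whose groups differ, Cdh5 had the highest mean level of the 10 genes and Flt1 the lowest. Mean levels over the 12 libraries were 0.864 CPM per kb for Cdh5, 0.410 for Cldn5, 0.338 for Kdr, 0.299 for Tek, 0.245 for Dll4, 0.228 for Pecam1, 0.183 for Tie1, 0.102 for Emcn, 0.0364 for Sox17 and 0.0321 for Flt1. The SD over libraries was 0.464 for Cdh5, 0.416 for Cldn5 and 0.276 for Kdr, and no neighbours in this order differed by more than the larger of their SDs. The order was not the same in each group: in DMSO the mean for Tek (0.342 CPM per kb) was above that for Cdh5 (0.334), and in FGFRi Cldn5 and Sox17 had 0 counts, below Flt1 (0.0140 CPM per kb). Exon lengths came from an annotation of another build than the counts, which limits these values to an order of size.

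Most of the 10 genes went up and down together over the libraries, with Tek outside that pattern and Cdh5 loosely tied to it. On log2 CPM, Pearson's r over the 12 libraries was -0.14 to 0.93 for the 45 pairs, with a median of 0.73. The 28 pairs without Tek or Cdh5 had 0.56 to 0.93 (median 0.80). The 9 pairs with Tek had -0.14 to 0.25, and the other 8 pairs with Cdh5 had 0.16 to 0.73. The closest pairs were Kdr with Dll4 (0.93), Flt1 with Dll4 (0.91) and Sox17 with Dll4 (0.91). These values describe 12 libraries that share groups, and low counts and depth enter all of them.

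Kdr and Flt1 each varied closely with Dll4, so the sequence before the start sites of these 3 genes is shown. RefSeq promoter windows on GRCm38.p6 were found for 7 of the 10 genes, and not for Pecam1, Cdh5 and Sox17. The 250 bases before the start are given 5′ to 3′ on the gene's strand, with capitals for the string GGAAGT and for the string AGGAAG or their reverse complements, which overlap in part and hold the core bound by ETS factors, the family active in endothelial enhancers. The windows are chr5:75978456-75978705 (minus strand) for Kdr, chr5:147726012-147726261 (minus strand) for Flt1 and chr2:119325534-119325783 (plus strand) for Dll4.
Kdr: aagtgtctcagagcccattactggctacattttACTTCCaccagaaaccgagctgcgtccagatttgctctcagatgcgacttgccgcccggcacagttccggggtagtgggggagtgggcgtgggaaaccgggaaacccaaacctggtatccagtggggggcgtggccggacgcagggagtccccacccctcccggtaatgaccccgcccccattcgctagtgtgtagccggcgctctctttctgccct
Flt1: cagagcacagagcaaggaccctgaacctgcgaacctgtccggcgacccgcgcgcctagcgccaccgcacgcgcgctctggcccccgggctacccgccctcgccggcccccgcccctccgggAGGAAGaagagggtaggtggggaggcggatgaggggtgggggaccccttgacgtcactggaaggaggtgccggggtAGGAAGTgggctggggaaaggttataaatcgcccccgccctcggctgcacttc
Dll4: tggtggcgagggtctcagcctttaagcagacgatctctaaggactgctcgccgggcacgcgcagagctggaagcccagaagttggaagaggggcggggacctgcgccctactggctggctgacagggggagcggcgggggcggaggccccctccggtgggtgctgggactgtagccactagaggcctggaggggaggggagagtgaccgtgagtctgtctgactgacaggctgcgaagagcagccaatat
Flt1 held AGGAAG at 2 places and GGAAGT at 1 of them, Kdr held GGAAGT at 1 place on the opposite strand, and Dll4 held neither. Over windows of 300 bases that reach 50 bases past the start, 4 of the 7 genes held at least 1 of 3 such strings (CCGGAAG as well as the strings above) on either strand, beside 48.4% of 32851 promoters. The GATA string AGATAA was in 1 of 7 (Tek) beside 11.2% of all, and the SOX string ACAAAG also in Tek beside 18.7%. These shares are near the background and describe letters in a window, not bound sites.

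Genes outside the set whose log2 CPM followed the mean standardized level of the 9 tested genes over the 12 libraries were ranked among 14044 with a mean of at least 1 CPM. The closest was Gm7162 (r = 0.95), followed by Auts2 (0.94), Med12 (0.94), Il20rb (0.94), Fxyd4 (0.93), Tmem120b (0.93), Med13l (0.93), Gga3 (0.91), Cd93 (0.91) and Gm12504 (0.90). Of these, Cd93, which encodes a lectin-like receptor of endothelium, was the 1 gene on a list of vessel genes. It was read at 1.11 to 2.96 CPM in DMSO, 0.367 to 0.609 CPM in FGFRi, 1.17 and 2.38 CPM in WT, 3.79 and 9.89 CPM in HET, and 5.28 and 5.34 CPM in HOM. HET 2 was again the highest library. By list, the median r with the level of the 9 genes ran from -0.39 (12 epithelial genes) to 0.69 (4 erythroid genes). It was 0.29 for 19 genes of a wider endothelial list, 0.34 for 7 mural genes and 0.040 over all ranked genes. The pattern was thus not particular to endothelial genes.

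A wider list of 32 endothelial genes did not behave as 1 group either. Of 24 that passed the filter, 6 rose and 2 fell under FGFRi, with a median of 0.45. Tspan18, which encodes an endothelial tetraspanin, rose by 1.72 ± 0.15 (adjusted p = 4.47e-06) from 10.3 to 34.8 CPM. Cd34, a sialomucin of endothelium that fibroblasts and other cells also make, rose by 1.40 ± 0.15 (adjusted p = 2.06e-05), and Shank3 and the receptor activity modifier Ramp2 rose by 1.23 ± 0.20 and 1.35 ± 0.23 (adjusted p = 0.000594 and 0.000860). The other rises were in Calcrl and Clec14a. Scaled to the mesenchymal genes, Shank3 (0.26) and Ramp2 (0.38) were not called. Cd93 fell by 1.83 ± 0.54 (adjusted p = 0.0272), a call lost without any 1 of 5 libraries (all but DMSO 1) and with library sex in the model (adjusted p = 0.0519). Palmd fell by 0.43 (adjusted p = 0.00838; lost without DMSO 2 or FGFRi 1 and, with adjusted p = 0.0663, with sex, and 0.045 when scaled to the epithelial genes). Palmd, Cd34 and Tspan18 made up 60.9% of the list's mean level, while Ecscr, Erg, Sox18, Icam2, Tal1, Gpihbp1, Nos3, Myct1 and Adgrl4 were under 1 CPM in all 12 libraries. The list's sum was 131 to 156 CPM in DMSO and 177 to 211 CPM in FGFRi. In WT the sum was 145 and 156 CPM, in HET 186 and 196 CPM and in HOM 197 and 198 CPM. Unlike the sum of the 10 genes, the sum of this list was thus as high in FGFRi as in HET and HOM. The sum follows its abundant genes, such as Tspan18. Mean Cd34 went from 14.09 CPM in DMSO to 37.03 in FGFRi, and mean Calcrl from 8.953 to 18.71. Of the 24 tested genes, 7 were higher in every FGFRi library than in every DMSO library, and 6 were lower in every one. The higher sum under FGFRi is therefore not a rise of the list as a whole.

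The same list gave 4 rises and 1 fall in HOM against the joined controls (median 0.54), with Tspan18 at 0.71 ± 0.13 (adjusted p = 0.00625, lost without HOM 2) and Clec14a at 1.26 ± 0.28 (adjusted p = 0.0150, lost without HOM 1 or HOM 2), beside Ramp2, Cd34 and the fall in Palmd. In HET against WT edgeR called 0 of 24 and DESeq2 1, with 11 at an unadjusted p under 0.05. The median was 0.56. Cd93 had a difference of 1.99 there (adjusted p = 0.0536).

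**Figure D3:**
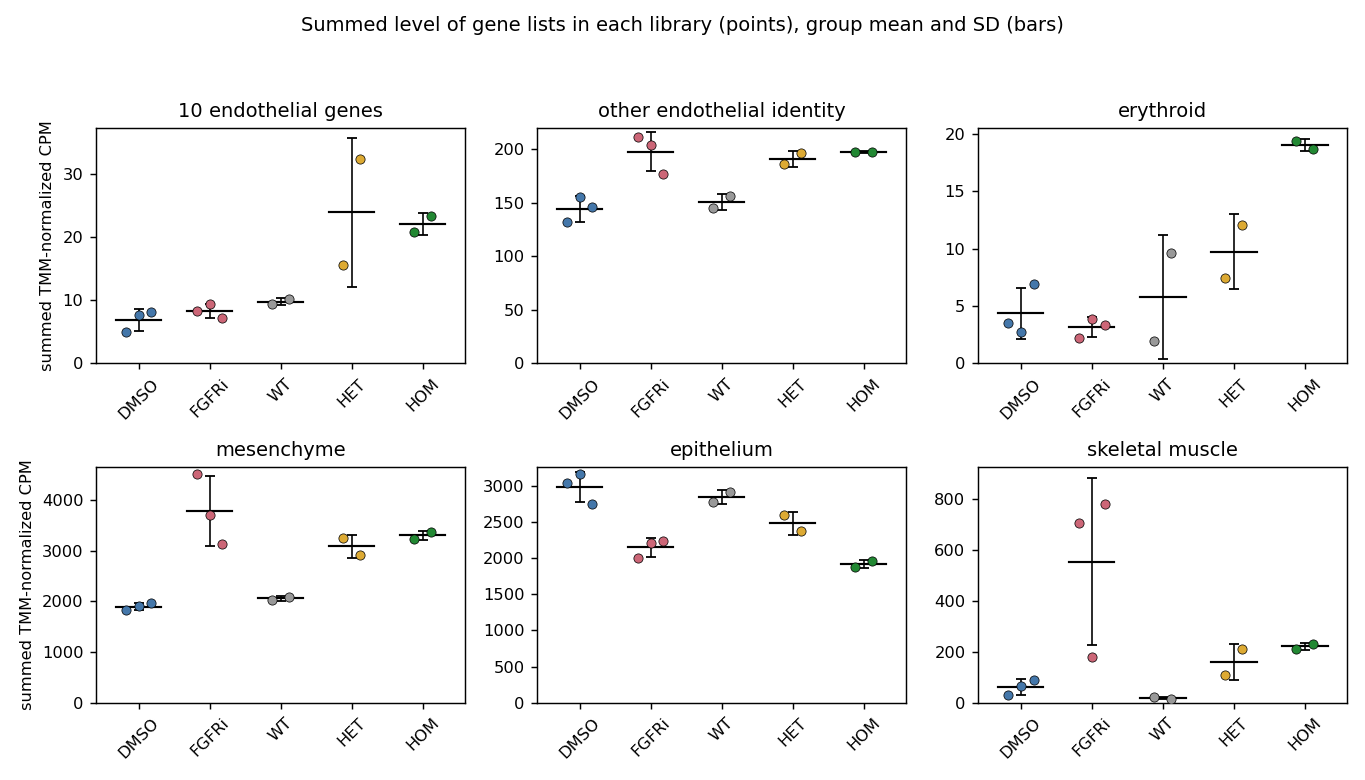
Summed TMM-normalized CPM (vertical axis) of 6 gene lists in the 5 groups (horizontal axis), with libraries as points, group means as long bars and SD as error bars. The 10 endothelial genes were high in HET and HOM, while mesenchymal genes (3133 to 4510 CPM) and muscle genes were high in FGFRi as well and epithelial genes were low there.

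Among the VEGF ligands and co-receptors, 3 of 8 rose and 1 fell under FGFRi. Vegfa, the main VEGF ligand, was read at 43.1, 51.1 and 48.9 CPM in DMSO, 32.3, 38.5 and 38.8 CPM in FGFRi, 31.0 and 29.4 CPM in WT, 44.6 and 48.2 CPM in HET and 37.9 and 44.3 CPM in HOM. All inhibitor libraries were below all vehicle libraries, yet above both WT libraries. Vegfa fell by 0.38 ± 0.099 under FGFRi (adjusted p = 0.0134), a call lost without DMSO 2 or FGFRi 1, with library totals and with library sex in the model (adjusted p = 0.0755), and its difference was 0.086 when scaled to the epithelial genes. It was higher in DMSO than in WT by 0.67 (adjusted p = 0.00409, lost without WT 1 or WT 2) and in HET than in WT by 0.62 ± 0.12 (adjusted p = 0.0195, lost without WT 1, WT 2 or HET 2, and with library totals, adjusted p = 0.107). Scaled to the wider list of 32 endothelial genes, not to the 10, the HET difference was 0.27 (adjusted p = 0.216).

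Nrp1 and Nrp2 encode neuropilins, which bind VEGF beside the receptors and are also made by mesenchyme and nerve. Nrp1 was 36.9, 20.4 and 30.9 CPM in DMSO and 55.6, 51.6 and 42.7 CPM in FGFRi, without overlap. It rose by 0.80 ± 0.17 (adjusted p = 0.00395), and Nrp2 by 0.48 ± 0.16 (adjusted p = 0.0429, lost without any 1 of DMSO 2, DMSO 3, FGFRi 1 and FGFRi 2, and with library sex in the model, adjusted p = 0.0598). When libraries were scaled to their mesenchymal genes, these differences were -0.20 and -0.50, beside a median of -0.96 over all genes. In HOM they were 0.58 ± 0.16 and 0.58 ± 0.15 (adjusted p = 0.0498 and 0.0333), and the first was lost with any of the 6 libraries left out, the second without WT 1, HET 2, HOM 1 or HOM 2. Vegfd was 0.701 CPM in DMSO and 2.32 CPM in FGFRi (1.69 ± 0.57, adjusted p = 0.0496, lost without any 1 of 5 libraries, all but DMSO 3, and with library sex in the model, adjusted p = 0.157). Vegfb, Vegfc, Pgf and the lymphatic receptor gene Flt4 were not called in FGFRi, HOM or HET. Their means in DMSO and FGFRi were 35.4 and 29.1 CPM for Vegfb, 1.39 and 1.38 for Vegfc, 6.11 and 5.02 for Pgf, and 1.63 and 0.914 for Flt4.

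Of the angiopoietins, the ligands of the Tek receptor, Angpt4 was read at 0, 0.208 and 0.821 CPM in DMSO and 2.57, 2.91 and 1.83 CPM in FGFRi, and at 0.146 to 0.703 CPM in the other 3 groups. It rose by 2.96 ± 0.60 under FGFRi (adjusted p = 0.00291), which held with any library left out. Angpt1, the activating ligand, was 3.66 to 6.295 CPM in DMSO, 6.198 to 8.99 CPM in FGFRi, 4.61 and 5.19 CPM in WT, 4.47 and 3.54 CPM in HET and 2.48 and 2.19 CPM in HOM. It fell by 0.93 ± 0.25 in HOM against the joined controls (adjusted p = 0.0402), a call lost without any 1 of 5 libraries, all but HET 2. Angpt2, which is made by endothelium itself and competes with Angpt1, was 2.21 CPM in DMSO, 3.76 in FGFRi, 2.70 in WT, 5.21 in HET and 3.95 in HOM, and was not called.

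**Figure D4:**
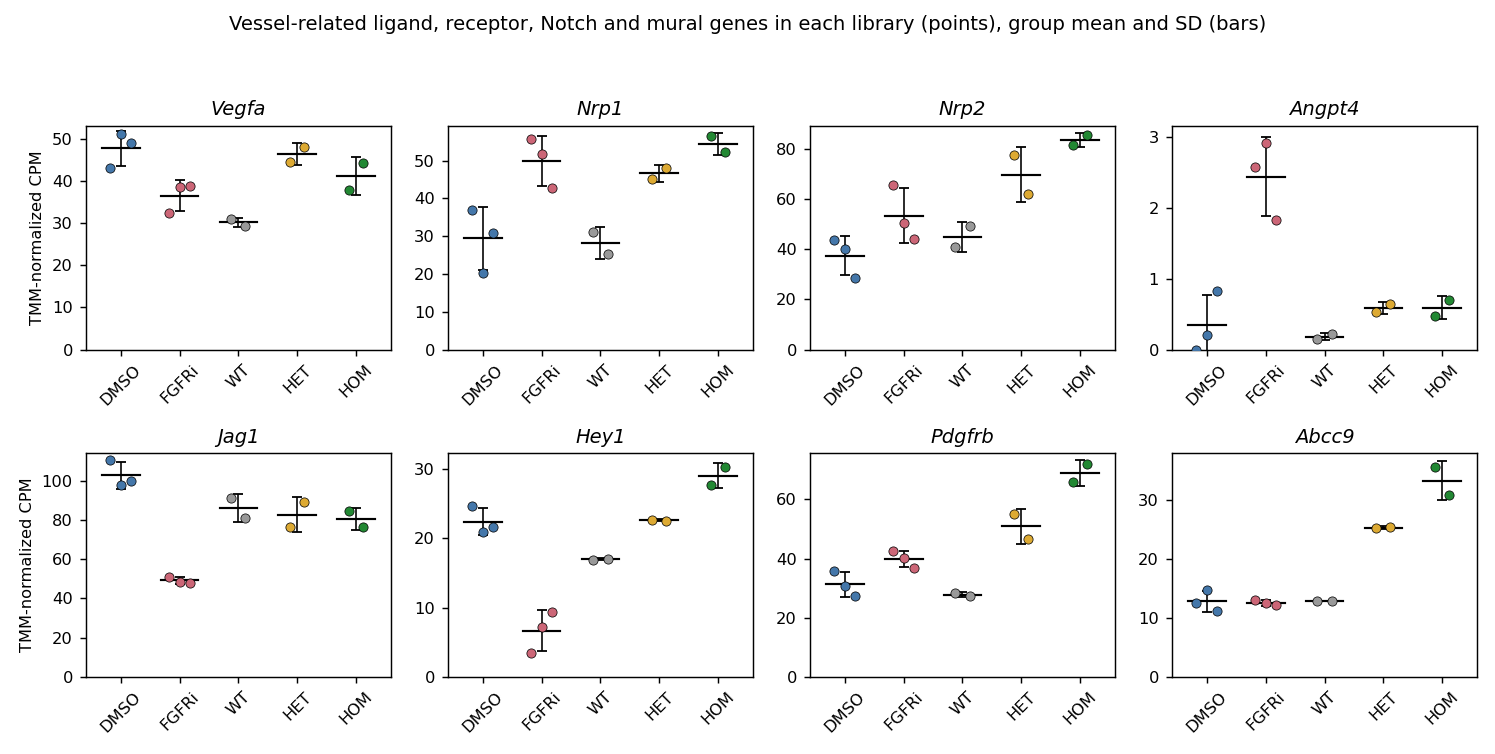
TMM-normalized CPM (vertical axis, own scale per gene) of 8 vessel-related genes in the 5 groups (horizontal axis), with libraries as points, group means as long bars and SD as error bars, cut off at 0. Jag1 and Hey1 were low and Angpt4 high in FGFRi, and Abcc9 was high in HET and HOM.

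Genes of Notch signalling and of arteries split in direction under FGFRi, with 4 of 11 higher and 3 lower. Jag1, a Notch ligand that epithelium also makes, was 111, 98.1 and 99.8 CPM in DMSO and 51.2, 48.4 and 48.0 CPM in FGFRi. It fell by 1.07 ± 0.086 (adjusted p = 2.95e-06). Hey1, a Notch target, fell by 1.60 ± 0.19 (adjusted p = 4.87e-05) and Notch1 by 0.66 ± 0.11 (adjusted p = 0.000737; -0.19 and not called when scaled to the epithelial genes). Gja5, which encodes an arterial connexin, rose by 3.01 ± 0.50 (adjusted p = 0.000705) from 0.568 to 4.36 CPM, and the other rises were in Efnb2, Hey2 and Heyl. In HOM, Heyl rose by 1.55 ± 0.24 (adjusted p = 0.00178, lost without HOM 2), and Hey1 was the other call. In HET against WT edgeR and DESeq2 called 0 of 11, with 3 at an unadjusted p under 0.05.

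Nr2f2, a factor of venous identity that mesenchyme also makes, rose by 1.10 ± 0.12 under FGFRi (adjusted p = 2.06e-05) and by 0.54 ± 0.11 in HOM (adjusted p = 0.0110, lost without HOM 1 or HOM 2). Its difference under FGFRi was 0.12 when scaled to the mesenchymal genes. Nid2, a basement membrane gene, rose by 0.90 ± 0.12 (adjusted p = 0.000198) and had -0.093 under that scaling. Apln, a peptide gene of tip cells, was 0.806 and 0.648 CPM in WT and 2.42 and 3.94 CPM in HET, and rose by 2.09 ± 0.45 (adjusted p = 0.0326, lost without WT 1, WT 2 or HET 2). Nid2 was the other call in both HOM and HET. Of 3 tested lymphatic genes, Pdpn, which other cells also make, rose under FGFRi, while Lyve1 was at 0 to 0.303 CPM and Prox1 at 1.51 to 4.40 CPM in all libraries.

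Of 9 tested pericyte and mural genes, 2 rose and 3 fell under FGFRi, 4 rose in HOM and 3 rose in HET. The test of the difference between the inhibitor effect and the deletion effect called 1 of the 9, Abcc9. Pdgfrb, the receptor that recruits pericytes and that mesenchyme also makes, was 28.3 and 27.2 CPM in WT, 55.1 and 46.7 CPM in HET and 65.7 and 72.0 CPM in HOM. Abcc9, a channel subunit gene of pericytes, was 12.9 and 12.9 CPM in WT, 25.1 and 25.4 CPM in HET and 35.6 and 30.9 CPM in HOM, and 11.2 to 14.7 CPM in all DMSO and FGFRi libraries. In HET against WT, Pdgfrb rose by 0.87 ± 0.12 (adjusted p = 0.00338, lost without WT 1 or WT 2) and Abcc9 by 0.97 ± 0.13 (adjusted p = 0.00190, lost without WT 1). In HOM against the joined controls both rose by 0.87 or 0.88 ± 0.10 (adjusted p = 0.000232 and 0.000279), which held with any library left out. Values under other settings were computed for 10 list genes called in HOM, Tspan18, Clec14a, Nrp1, Nrp2, Angpt1, Heyl, Nr2f2, Pdgfrb, Abcc9 and Hba-a1. Against HET alone none of these 10 was called, Pdgfrb and Abcc9 included (0.44 and 0.39), and with library sex in the model Abcc9 was the 1 of the 10 that kept its call. Des and Cspg4 were the other rises in HOM and Kcnj8 in HET. Under FGFRi, Notch3 (-0.78 ± 0.11), Myh11 (-1.26 ± 0.21) and Acta2 (-0.67 ± 0.12) of this list were lower, with adjusted p from 0.000162 to 0.000975. Des (2.77 ± 0.47), which skeletal muscle also makes, and Pdgfrb were higher. Which cells of the gland carry these differences was not tested. Scaled to the epithelial genes, Acta2 was not called (-0.19, adjusted p = 0.122).

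Red cell, macrophage and hypoxia response genes were followed beside the vessel genes. The summed CPM of 10 erythroid genes was 2.71 to 6.90 in DMSO, 2.202 to 3.89 in FGFRi and 1.98 and 9.62 in the WT libraries. It was 7.42 and 12.1 in the HET and 18.7 and 19.4 in the HOM libraries. Hba-a1, an adult globin gene, was higher in HOM by 2.22 ± 0.61 (adjusted p = 0.0449), a call lost with any of the 6 libraries left out. The summed CPM of 10 macrophage genes was 20.4 to 44.2 in DMSO, 22.4 to 42.02 in FGFRi, 19.3 and 23.9 in the WT libraries, 24.1 and 28.2 in the HET libraries, and 34.0 and 42.7 in the HOM libraries. Of 8 tested hypoxia genes, 4 fell under FGFRi: Pgk1 by 0.65 ± 0.076, Vldlr by 0.70 ± 0.11, Ldha by 0.47 ± 0.079 and Slc2a1 by 0.61 ± 0.10 (adjusted p from 4.89e-05 to 0.000935), and Ndrg1 rose. Epithelium makes these genes too, and its part in these falls was not tested. All 4 calls were lost when libraries were scaled to the epithelial genes. That scaling moved the median of all genes from -0.015 to 0.46. The calls of Ldha and Slc2a1 were also lost with library totals.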

How the data were processed

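The authors deposited raw read counts per gene, whole numbers with no normalization, and no other unit. Per the submitters' processing notes, bcl2fastq, STAR and GRCm39 were used, without versions. Not given in the sources used here are the counting program, its use of strand and the annotation. Reads of overlapping genes may therefore be shared. Symbols and exon lengths came from GENCODE M21 (GRCm38). The 12 libraries were grouped by their labels.

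Counts were tested in R 4.3.3 with edgeR 4.0.16 (quasi-likelihood F test, TMM, filterByExpr with minimum count 10 and minimum total 15, 15859 genes kept), with the 5 groups as the terms of 1 model and no covariate. P-values are two-sided, with Benjamini-Hochberg adjustment over all genes of a contrast. SE is the log2 fold change divided by the square root of F. Correlations used log2(CPM + 0.5). Depth was 6043701 to 22322182 counts, without molecular identifiers, so floors of 3 counts cover counting error only. The model was tested on simulated counts for FGFRi against DMSO alone, with changes planted in genes above a minimum mean CPM. Changes in genes at lower levels and the other comparisons were not tried.

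The 10 genes and all lists were chosen with earlier results of these data known. The text names every member, the VEGF and angiopoietin genes, up to 4 genes of each other list by p under FGFRi and up to 2 by p in HOM, with further genes named where 5 or fewer were called. Genes of the mesenchyme, epithelium and skeletal muscle lists are given as counts and sums. Alternatives were other scalings, filters, tools (DESeq2 1.42.0, limma-voom 3.58.1), covariates, controls, a replicate block and each library left out. The mesenchymal scaling, a filter by CPM, limma-voom and a fit of the compared groups alone were not run for HET or DMSO against WT. A comparison of proteins was planned but not analysed here.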

Additional observations from a re-analysis of the deposited data

Results flagged for a closer look

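The inhibitor effect and the deletion effect differed for 439 genes by edgeR's test of that difference, with Benjamini-Hochberg adjustment over all genes. The lists of vessel, other cell type and hypoxia genes held 12 of them, of which 9 are given here. The other 3 were the lymphatic list gene Pdpn (0.84) and the mesenchymal genes Prrx1 (0.83) and Col1a1 (0.79). Values are the FGFRi effect minus the HOM effect on the log2 scale. Among Notch genes, Hey1 had -2.17 ± 0.25 (adjusted p = 0.0002), Jag1 had -0.99 ± 0.12 (adjusted p = 0.000383) and Notch1 had -0.80 ± 0.16 (adjusted p = 0.0138). Hey1 was lower under FGFRi and higher in HOM. Both HOM libraries were female and the WT and HET libraries male, so sex enters the HOM effect. The call of Notch1 was lost with library totals (adjusted p = 0.159) and with library sex in the model (adjusted p = 0.0512). Hey1 and Jag1 kept their calls in all 12 fits that left out a library, and Notch1 lost it without HOM 2.

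Among vessel genes, the pericyte gene Abcc9 had -0.95 ± 0.16 (adjusted p = 0.00494) and kept its call in all 12 of these fits. Tspan18 had 1.02 ± 0.20 (adjusted p = 0.0152) and lost its call without HOM 1 or HOM 2. Cd34 had 0.86 ± 0.20 (adjusted p = 0.0383) and Angpt1 had 1.40 ± 0.34 (adjusted p = 0.0395), each lost in 9 of the 12 fits. The hypoxia gene Pgk1 had -0.43 ± 0.11 (adjusted p = 0.0464), lost in 11 of the 12. The tight junction gene Cldn5 had 0 counts in FGFRi and so no size. Its adjusted p was 0.0467, and the call was lost in 11 of the 12, all but without HET 2. With library totals, Abcc9 (adjusted p = 0.0539), Tspan18 (0.183), Cd34 (0.432), Angpt1 (0.163) and Pgk1 (0.687) lost their calls. With library sex in the model, Angpt1 (0.118), Pgk1 (0.0988) and Cldn5 did. With the mesenchymal scaling, Tspan18 (0.127), Cd34 (0.359) and Angpt1 (0.0701) did.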

How the results depend on the processing

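Counts per gene were low, which limits every endothelial value: Flt1, Tie1, Emcn, Cldn5, Sox17 and Dll4 had under 20 counts in each of the DMSO and FGFRi groups. The call for Cdh5 under FGFRi held in all settings but the mesenchymal scaling (0.61). Scaling to a cell-type list moves every gene, and the endothelial scaling used the wider list of 32 endothelial genes, not the 10. The median of all genes under FGFRi became -0.44 with that endothelial list, -0.96 with mesenchyme and 0.46 with epithelium.

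Genes called under FGFRi numbered 3245, against 1303 with library totals, 8579, 11800 and 8931 with the endothelial, mesenchymal and epithelial scalings, 1561 with the replicate block, 2153 with library sex and 1896 to 3099 with a library left out. In HOM against joined controls they were 933, against 4396 and 9534 with the mesenchymal and epithelial scalings, 1449 without the filter, 1406 with the compared groups alone, 46 with sex, 237 against HET alone and 140 to 658 with a library left out. In HET against WT they were 194, against 2235 and 389 with the endothelial and epithelial scalings, 655 without the filter, 380 with the replicate block and 25 to 195. In DMSO against WT they were 358, 797 without the filter and 110 to 370. For the difference of effects they were 439, 169 with library totals, 5036 and 242 with the mesenchymal and epithelial scalings, 1003 without the filter, 208 with the replicate block and 77 to 560. Same-numbered DMSO and FGFRi libraries had correlations of deviations of -0.12 to -0.042, and 0 of 6 libraries correlated best with the library of their own number, so the numbers were not used as pairs. A replicate block moved counts as given. A block with the WT numbers crossed, chosen after seeing the data because same-numbered WT and HET libraries deviated oppositely (-0.14), gave 1765 in HOM and 788 in HET.

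Of the 9 tested endothelial genes, 2 were called under FGFRi, against 4 with the endothelial or mesenchymal scaling, 1 with DESeq2, the compared groups alone, the replicate block or sex, and 1 to 2 with a library left out. Fewer genes were tested there: DESeq2 gave an adjusted p for 6, and 2 passed the filter with the compared groups alone and with the block, which was fitted on these groups, so Cldn5 was not tested in these 3 settings. In HOM 0 were called, against 4 with the epithelial scaling and 1 without the filter, with limma-voom, the compared groups alone, either replicate block or WT alone (DESeq2 tested 4). In HET 1 was called, against 3 with library totals, 4 without the filter and 0 to 3 with a library left out (6 tested with a block). In DMSO against WT 0 were called, and 1 without the filter (5 tested with the block). For the difference of effects 1 was called, against 3 with the mesenchymal scaling, 0 with the epithelial scaling, DESeq2 (4 tested), limma-voom, the replicate block or sex, and 0 to 1 with a library left out.

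Signs turned for uncalled genes and a few called ones. Under FGFRi, Kdr was -0.35 and Flt1 -0.043 with the endothelial scaling, and with the mesenchymal scaling Kdr was -0.88, Flt1 -0.55, Dll4 -0.31, Nrp1 -0.20, Nrp2 -0.50 and Nid2 -0.093. With the epithelial scaling Tek was 0.081, Vegfa 0.086 and Palmd 0.045, and with sex Emcn was 1.49. With a library left out, Kdr ran from -0.14 to 0.49, Flt1 from -0.030 to 4.21, Tek from -0.63 to 0.029, Emcn from -1.21 to 1.48 and Dll4 from -0.20 to 0.99. In HOM, Emcn was -0.0020 and Dll4 -0.18 with the mesenchymal scaling, Tek 0.25 with the epithelial, and Tie1 -0.25, Nrp1 -0.16 and Hba-a1 -0.56 with sex. Against HET alone Cdh5 was -0.044, Kdr -0.055, Flt1 -0.68, Emcn -0.095 and Dll4 -0.91. With a library left out, Tek ran from -0.89 to 0.33 and Dll4 from -0.11 to 0.86. In HET against WT, Tek was 0.097 with library totals, 0.16 with the epithelial scaling, 0.023 with the replicate block and 0.030 with the crossed block. With a library left out it ran from -0.42 to 0.55, and Tie1 from -0.69 to 1.07. The cause was not tested. With a library left out of a group of 2, the lone sample is assumed to vary like the other groups.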
